A study of Mus musculus with 21 samples.

Results

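Mitosis genes encode the proteins that divide a replicated genome between daughter cells. They formed the subject of this comparison in mice lacking cystatin B, an inhibitor of cysteine cathepsins whose loss causes a progressive myoclonus epilepsy. The set held 47 genes, chosen by function as cyclins and kinases of mitotic entry, spindle checkpoint, anaphase, kinetochore, spindle, chromosome and cytokinesis genes. Kinesins were left out, except for the kinetochore motor Cenpe. Of these, 46 had at least 1 probe set annotated to that symbol alone, among 18193 such genes on the array, and together they had 105 of the 45037 probe sets tested. The probe sets of Ccnb1 (cyclin B1) carried no symbol in the annotation used, and this gene was not analysed here.

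The arrays were Affymetrix mouse expression arrays of 3 kinds of sample, each with Cstb-/- mice and wild type mice on the 129SvJ background. The P7 groups were whole cerebella of Cstb-/- and wild type pups at postnatal day 7, before symptoms (4 arrays per genotype), and the P30 groups were cerebella at postnatal day 30, when the Cstb-/- mice have myoclonus (3 arrays per genotype). The remaining experiment used cultured cerebellar granule cells (CGC) of both genotypes, taken from pups at postnatal day 5 after the meninges had been stripped, grown in calf serum and harvested after 2 days in vitro (3 Cstb-/- and 4 wild type arrays). The CGC cultures of both genotypes had also been given AraC, a nucleoside that kills cells in S phase, to limit growth of glia. The null allele is constitutive, so all cells of a Cstb-/- animal or culture lacked the gene. Nothing in the sources said whether CGC arrays of a genotype came from separate cultures, so p-values measure the spread between these arrays.

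Every value below is a log2 signal relative to the median of that probe set within its own experiment. The level itself was removed, so one gene could not be ranked against another and the labelled tissue could not be checked from the level of its defining markers. With 3 Cstb-/- and 4 wild type arrays, the median is the highest wild type array wherever all Cstb-/- arrays lie above the wild type ones, and the lowest wild type array wherever they all lie below, and that array then stands at exactly 0. Changed here means a difference of at least 1.3-fold with an adjusted p from limma, corrected over all probe sets of the experiment, under 0.01 in the CGC or under 0.05 in cerebella. Both Cstb probe sets fell in each experiment, with log2 differences of -2.08 and -1.86 in the CGC, -3.10 and -2.31 at P7 and -2.70 and -2.77 at P30. Sex genes went against the labelled sex on Cstb-/- CGC arrays 1 and 2, wild type CGC arrays 7 and 8 had signal of both sexes, and the P30 Cstb-/- array labelled female did not differ from the male ones. P7 Cstb-/- array 5 had a mean value of 3.39 over 3 probe sets for 18S ribosomal RNA, against -0.40 to 0.64 on the other P7 arrays.

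Mitotic genes are transcribed late in the cell cycle. Cyclin A2 and B cyclins activate CDK1 to start mitosis, checkpoint proteins hold anaphase back until all chromosomes are attached, and the anaphase-promoting complex (APC/C) then marks cyclins and securin for destruction so that sisters separate and the cell is cut. In the developing mouse cerebellum the main dividing cells are granule cell precursors of the external layer, which proliferate in the first postnatal weeks and then leave the cycle. Cultured granule neurons are largely postmitotic. In bulk samples such as these, more dividing cells and more mitotic RNA per cell cannot be told apart.

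In the CGC the mitosis genes were higher in Cstb-/- cultures across all roles. Of the 46 genes measured, 43 had at least 1 probe set that rose, where 3.91% of all genes did, and 0 had one that fell, where 0.385% of all genes did. Among their probe sets, 59 of 105 rose, where 2.07% of all probe sets did, and 0 fell, where 0.469% did. Under the methods' t-test with correction over all probe sets 4 of the 105 rose, where 0.0622% of all did, and of the 14 called genes for which array values are given, 2 also passed that test at the same probe set, Cdk1 and Plk1. At an unadjusted p under 0.05 in limma, 78 were higher and 2 lower, where 18.3% and 13.3% of all probe sets were. The median log2 difference over the 105 was 1.01, with quartiles of 0.30 and 1.61, against a median of -0.02 over all probe sets. Probe sets called changed ran between 0.76 and 2.35. The 3 Cstb-/- arrays lay above all 4 wild type arrays in 74 of the 105, where this held for 13.4% of all probe sets, and below them in 0, where it held for 9.33%. Without Cstb-/- array 3, 38 probe sets rose, while changes on the whole array were also fewer, at 238 higher in place of 933. Both Cstb-/- arrays with sex genes against their label could be left out together only with 1 Cstb-/- array remaining, assumed to vary like the wild type ones. Then 0 of the 105 and 0 of all probe sets passed in limma, while 93 were above 0, 78 were higher at an unadjusted p under 0.05 (18.2% of all were) and the median was 1.04. Without wild type arrays 7 and 8, 6 of the 105 and 22 of all probe sets rose, and the median was again 1.04.

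**Figure D1:**
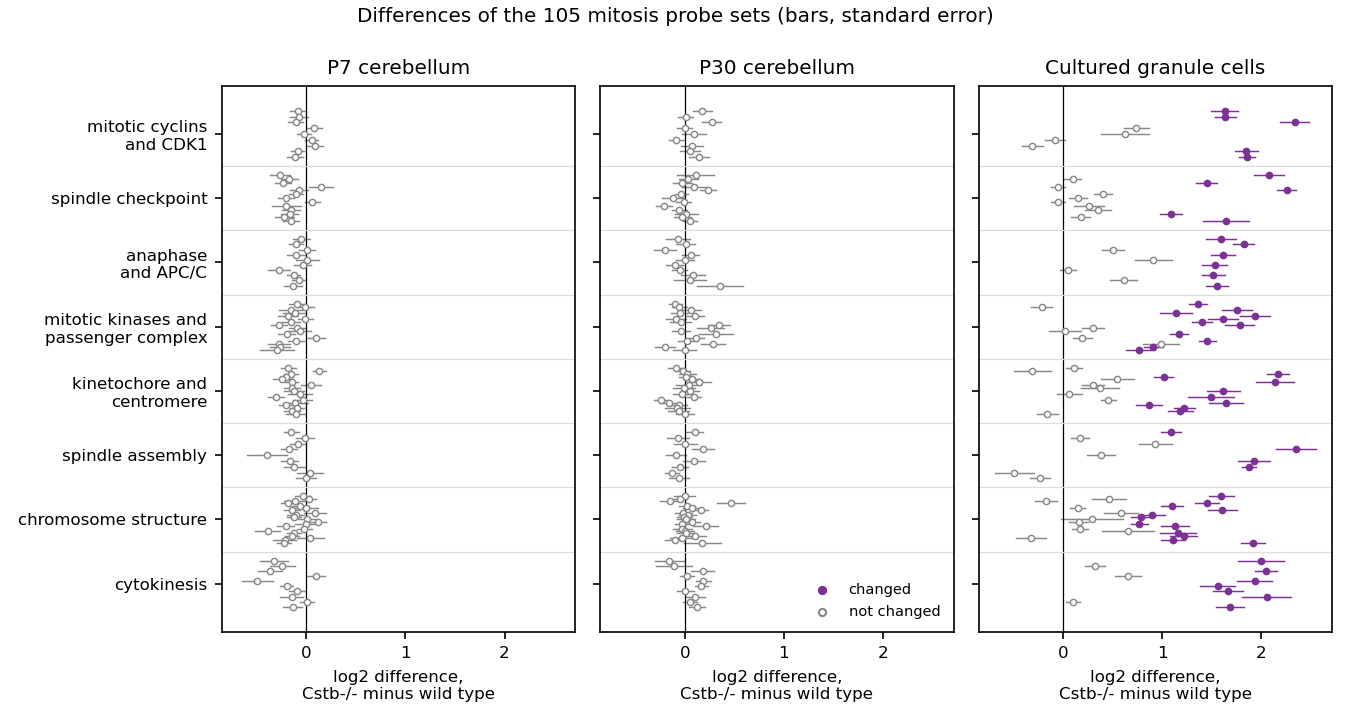
Log2 difference (Cstb-/- minus wild type, horizontal axis) of each of the 105 probe sets of the mitosis genes, grouped by role down the page, in P7 cerebellum, P30 cerebellum and cultured granule cells. Circles are estimates, bars are 1 standard error and filled circles are probe sets called changed: 59 in the cultures and 0 in either cerebellum.

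Mitotic entry depends on CDK1 bound to a cyclin. Cdk1, the kinase itself, stood at 1.73, 1.79 and 1.90 in Cstb-/- arrays 1, 2 and 3, against 0.00, -0.17, 0.00 and -0.01 in wild type arrays 4, 5, 7 and 8. The groups were far apart for their spread, with a log2 difference of 1.85 (SE 0.08, adjusted p = 2.86e-05, limma). Wild type arrays 4 and 7 both stood at exactly 0, so the deposited values do not hold the full spread of that group. Ccna2, cyclin A2, which acts in S phase and at mitotic entry, had 1.46, 1.35 and 1.33 in Cstb-/- CGC and -0.39, -0.52, 0.00 and -0.08 in wild type CGC. Its difference was 1.63 (SE 0.13, adjusted p = 4.80e-04), and its other probe set also gave 1.63. Ccnb2, cyclin B2, rose by 2.34 (SE 0.15). Cdca3, which triggers mitotic entry through destruction of WEE1, had 1 probe set of 3 that rose (1.85), while the other two gave -0.08 and -0.31. Cdc25c encodes a phosphatase that removes the inhibitory phosphate from CDK1. Its probe sets gave 0.74 (adjusted p = 0.0116) and 0.62 (adjusted p = 0.124), neither past the threshold.

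The spindle checkpoint genes differed among themselves. Bub1, a kinase of the unattached kinetochore, had 2.03, 1.68 and 1.94 in Cstb-/- CGC, against -0.03, -0.56, -0.16 and 0.00 in wild type CGC, a difference of 2.07 (SE 0.15, adjusted p = 2.54e-04). Its second probe set gave 0.09 and did not pass. Mad2l1, which encodes the MAD2 protein that sequesters CDC20, had 0.70, 1.04 and 0.90 in Cstb-/- CGC and 0.00, -0.28, -0.35 and -0.21 in wild type CGC. Its groups did not overlap either, with a difference of 1.09 (SE 0.11, adjusted p = 0.00146), which lost the call without Cstb-/- array 3 (adjusted p = 0.0123) or wild type array 8 (adjusted p = 0.0109). Bub1b, which encodes BUBR1 of the same inhibitory complex, rose at 2 of 3 probe sets (1.45 and 2.25), and Ttk, the kinase MPS1 at the top of the checkpoint, at 1 of 2 (1.65). Bub3, the adaptor that brings BUB1 and BUBR1 to kinetochores, had 5 probe sets between -0.05 and 0.40, none called, the nearest with an adjusted p of 0.0293.

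All 5 anaphase genes had a probe set that rose. Cdc20, the activator of the APC/C that the checkpoint restrains, had 1.18, 1.25 and 1.58 in Cstb-/- CGC, against 0.00, -0.51, -0.40 and -0.11 in wild type CGC. The lowest Cstb-/- array was more than a log2 unit above the highest wild type array, and the difference was 1.59 (SE 0.15, adjusted p = 9.11e-04). Its other probe sets gave 1.82, which was called, and 0.50, which was not. Pttg1 encodes securin, which holds separase inactive until anaphase. The lowest-numbered of its probe sets had -0.02, 0.00 and 0.08 in Cstb-/- CGC and -0.10, 0.10, -0.13 and 0.00 in wild type CGC, with overlapping groups (0.05, SE 0.08, adjusted p = 0.675). Another of its probe sets rose by 1.52 (SE 0.12, adjusted p = 3.25e-04). Espl1, separase itself, rose by 1.53, and Ube2c, the ubiquitin-conjugating enzyme of the APC/C, by 1.55. Cdca5, sororin, which protects cohesin until anaphase, rose by 1.61 at 1 of its 2 probe sets.

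Mitotic kinases and the chromosomal passenger complex were higher as well, in all 7 genes. Plk1, a kinase with roles from centrosome maturation to cytokinesis, had 1.28, 1.35 and 1.52 in Cstb-/- CGC, against -0.03, -0.10, 0.00 and -0.16 in wild type CGC. The spread within each group was small beside its difference of 1.46 (SE 0.08, adjusted p = 9.55e-05). Aurkb, the passenger kinase that corrects faulty attachments, had 1.45, 1.38 and 1.43 in Cstb-/- CGC and -0.33, -0.74, -0.26 and 0.00 in wild type CGC, a difference of 1.76 (SE 0.15, adjusted p = 6.81e-04). Birc5, survivin, anchors that complex at the centromere. It had 1.37, 1.82 and 1.65 in Cstb-/- CGC, against -0.43, -0.52, -0.33 and 0.00 in wild type CGC, a difference of 1.94 (SE 0.15, adjusted p = 3.41e-04). Cdca8, borealin, a further subunit, rose at all 3 probe sets, by up to 1.78. Aurka, the spindle pole kinase, rose by 1.36 at 1 of 2 probe sets, Nek2, which splits centrosomes, by 1.17 at 1 of 4, and Plk4, the trigger of centriole duplication, by 0.91 and 0.76 at 2 of 3.

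Kinetochore and centromere genes rose in 7 of 7 cases, although 8 of their 17 probe sets did not pass. Cenpa, the centromeric histone H3 variant, had 0.03, 0.14 and 0.00 in Cstb-/- CGC and 0.00, 0.00, -0.21 and 0.00 in wild type CGC at its lowest-numbered probe set, with no difference past the spread (0.11, SE 0.08, adjusted p = 0.379). A second probe set of Cenpa rose by 2.17 (SE 0.11, adjusted p = 6.43e-05), and another gave -0.31. Ndc80, the microtubule-binding subunit of the outer kinetochore, had 0.69, 0.47 and 0.74 in Cstb-/- CGC and -0.30, 0.00, -0.52 and -0.12 in wild type CGC. It had one of the smaller differences among the called genes, 0.87 (SE 0.13, adjusted p = 0.00756), and lost the call when any 1 of 6 arrays was left out, all but Cstb-/- array 2. Nuf2 and Spc25, which belong to the same complex, rose by 1.22 and 1.18, while the other probe set of Spc25 gave -0.16. Cenpf, a large coat protein of the kinetochore, rose by 2.13 at 1 of 3 probe sets, and Cenpe, its motor protein, by 1.01 at 1 of 2. Knstrn, kinastrin, a spindle and kinetochore protein, rose at 3 of 5 probe sets, by 1.49 to 1.64.

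Among the spindle genes the highest difference of the set was found. Nusap1, which bundles microtubules around chromosomes, had 2.02, 1.63 and 2.10 in Cstb-/- CGC, against 0.00, -0.85, -0.58 and -0.29 in wild type CGC. This gave a difference of 2.35 (SE 0.20, adjusted p = 6.09e-04), while its second probe set gave 0.38 (adjusted p = 0.109). Tpx2, which activates Aurora A and nucleates spindle microtubules, had 2.06, 1.64 and 1.56 in Cstb-/- CGC and -0.10, -0.52, 0.00 and -0.07 in wild type CGC. Its difference was 1.93 (SE 0.16, adjusted p = 5.25e-04). A further probe set of Tpx2 gave 1.88, and the remaining ones, at -0.49 and -0.23, did not pass. The value of -0.49 was the lowest among all 105. Ckap2, a stabiliser of spindle microtubules, rose by 1.09. Dlgap5, HURP, which stabilises fibres near chromosomes, gave 0.17 and 0.93, the second with an adjusted p of 0.0130.

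Genes of chromosome structure had the smallest median of the roles except the checkpoint, 0.79 over 21 probe sets, although all 8 had one that rose. Mki67, the Ki-67 protein that coats mitotic chromosomes and serves as the usual marker of cycling cells, had 1.17, 1.13 and 1.10 in Cstb-/- CGC, against -0.35, -0.53, 0.00 and -0.37 in wild type CGC. The Cstb-/- arrays were nearly alike, and the difference was 1.45 (SE 0.12, adjusted p = 5.32e-04). Top2a encodes topoisomerase II alpha, which untangles sister chromatids. At the probe set with the lowest number it had -0.26, 0.02 and -0.36 in Cstb-/- CGC and -0.09, 0.51, 0.00 and 0.07 in wild type CGC, an overlap, and its difference of -0.32 (SE 0.16, adjusted p = 0.189) was the lowest of the 46 genes read this way. Both other probe sets of Top2a rose, by 1.92 (SE 0.12, adjusted p = 1.21e-04) and 1.11 (SE 0.12, adjusted p = 0.00179). Smc2, a core subunit of condensin, had -0.72, 0.68 and 0.69 in Cstb-/- CGC, against -0.06, -0.23, 0.00 and 0.00 in wild type CGC. Cstb-/- array 1 was the lowest of all, so the difference of 0.29 (SE 0.31, adjusted p = 0.542) did not pass, whereas without that array it was 0.76 (adjusted p = 0.00974). On a pair of other Smc2 probe sets array 1 stood with the other Cstb-/- arrays, and these rose by 1.13 and 0.77. The condensin genes Smc4 (1.16 and 1.21 at 2 of 3 probe sets), Ncapd2 (1.10), Ncapg (1.61) and Ncaph (0.89 and 0.79) also rose. So did Cdca2, a phosphatase regulator that acts on chromatin at mitotic exit (1.60 at 1 of 3). The other probe sets of Ncapd2 (0.14) and Ncapg (0.58) were not called.

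Cytokinesis genes rose in 5 of 5 cases and had the highest median of the roles, 1.67 over 10 probe sets. Anln, anillin, which scaffolds the contractile ring, had 1.38, 1.87 and 1.59 in Cstb-/- CGC and 0.00, -1.02, -0.23 and -0.29 in wild type CGC. Racgap1, a subunit of the centralspindlin complex at the midzone, had 1.49, 1.28 and 1.96 in Cstb-/- CGC and 0.00, -0.75, -0.93 and -0.23 in wild type CGC. At these probe sets neither gene overlapped between genotypes, but wild type arrays were spread widely. The differences were 2.00 (SE 0.23, adjusted p = 0.00234) for Anln and 2.06 (SE 0.25, adjusted p = 0.00278) for Racgap1. The call of Anln was lost without Cstb-/- array 1 or 3 or wild type array 7 or 8, and that of Racgap1 without any of these or wild type array 5, with adjusted p between 0.0103 and 0.0174. Another Racgap1 probe set rose by 1.68, and its remaining one gave 0.10 with overlapping groups. The other probe set of Anln gave 0.32 (adjusted p = 0.0835) and was not called. Ect2, which switches on RhoA at the equator, rose by 1.93, Cep55, of the abscission site, by 2.05, and Prc1, which crosslinks midzone microtubules, by 1.56 and 1.66. The other probe set of Cep55 gave 0.66 and was not called.

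**Figure D2:**
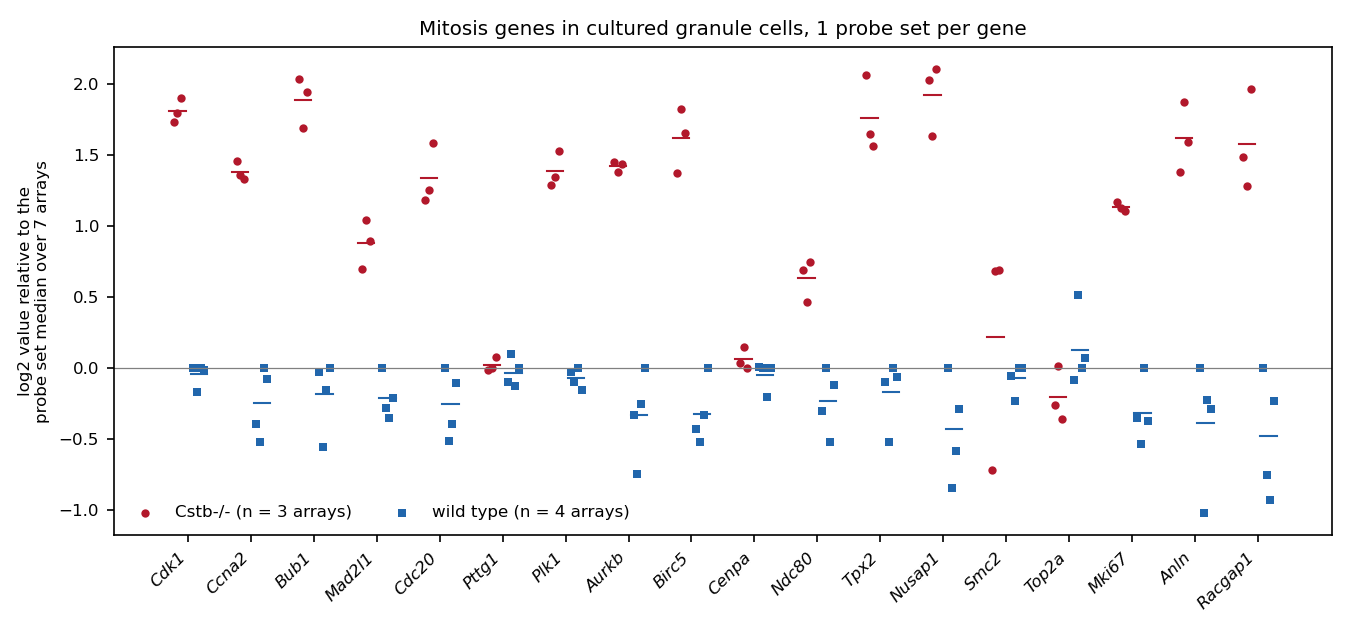
Values of 18 mitosis genes on each granule cell array, at the lowest-numbered probe set of each gene (vertical axis, log2 value relative to the probe set median over the 7 arrays). Red circles are the 3 Cstb-/- arrays, blue squares the 4 wild type arrays and lines the group means. The groups are apart for 14 genes and overlap for Pttg1, Cenpa, Smc2 and Top2a.

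Probe sets of 1 gene often gave different answers. Of the 46 genes, 34 had more than 1 probe set, and for 26 of the 46 some probe sets rose and others did not. In 17 genes every probe set rose, but most of these had only 1. With more than 1 probe set this held for Aurkb, Ccna2, Cdca8, Ncaph and Prc1 alone. Read at the lowest-numbered probe set alone, 34 of 46 genes rose, with a median difference of 1.45. Exact zeros on more than 1 CGC array occurred in 49.9% of all probe sets and in 19 of the 105, where the deposited values then hold no difference between those arrays. With all such probe sets left out, 64 of the remaining 86 rose, in 44 of 45 genes, where 7.29% of all remaining probe sets rose. The gene lost in this way was Cdk1, whose only probe set had exact 0 on 2 wild type arrays.

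**Figure D3:**
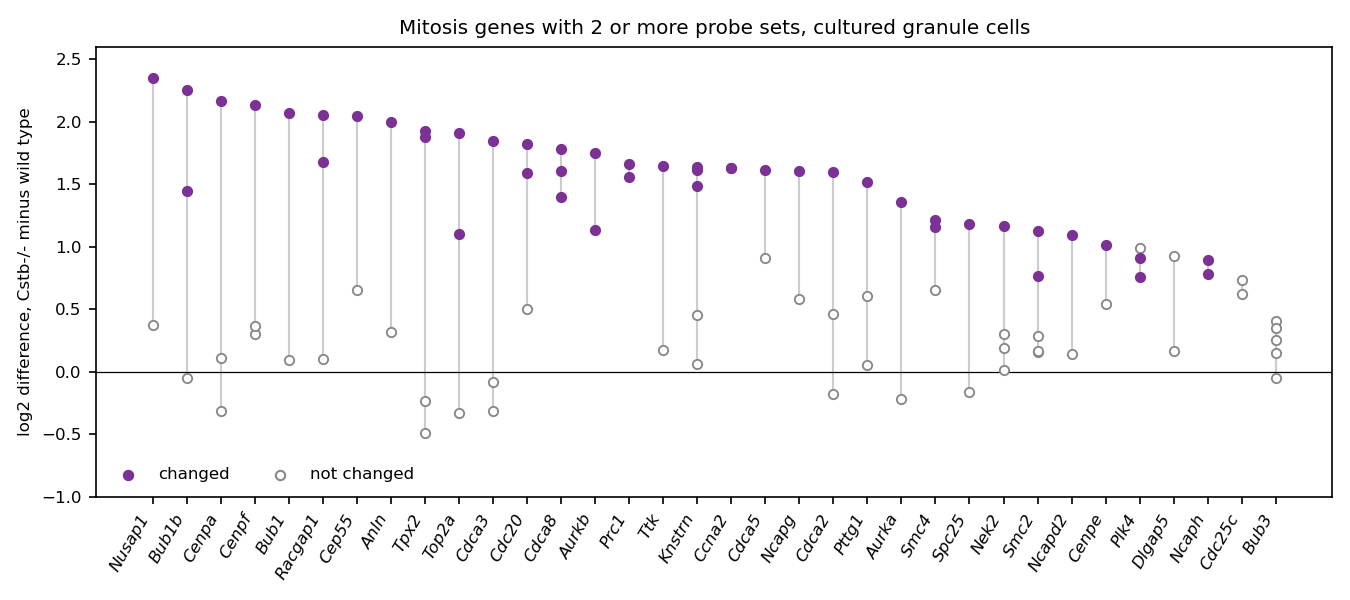
Log2 differences (Cstb-/- minus wild type, vertical axis) in cultured granule cells for the 34 mitosis genes with 2 or more probe sets, ordered by their highest value. Each circle is 1 probe set and filled circles are called changed. Nusap1 spans 0.38 to 2.35 and Tpx2 -0.49 to 1.93, while the 5 probe sets of Bub3 all stay at or under 0.40.

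Promoters of late cell cycle genes are known to carry a cell cycle genes homology region (CHR), bound by the DREAM and B-Myb-MuvB complexes, often below CCAAT boxes bound by NF-Y. RefSeq promoter windows (GRCm38.p6, 250 bases before to 50 after the gene start) were found for 40 of the 47 genes and searched on both strands for the CHR forms TTTGAA and TTCGAA and for CCAAT. A CHR form was in the window of 29 of 40 genes (72.5%), against 21.7% of all 27025 genes with a window. Within 50 bases either side of the start, a distance chosen after the positions had been seen, it was in 26 of 40 (65%), against 6.12% of all genes. CCAAT was in 28 of 40 (70%) and at least 2 copies in 19 (47.5%), against 41.1% and 13.3% of all genes. Both were in 1 window for 25 of 40 (62.5%), against 8.61%. These matches describe the letters in the window and are no evidence of binding in these cells.

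The 100 bases just before the start are given for 5 genes that rose and for Bub3, which did not pass, because all 6 hold both elements there. CHR forms and CCAAT boxes, read on either strand (TTCAAA and ATTGG are the opposite-strand forms), are in capitals.
Cdk1 (chr10:69352913-69353012, minus strand): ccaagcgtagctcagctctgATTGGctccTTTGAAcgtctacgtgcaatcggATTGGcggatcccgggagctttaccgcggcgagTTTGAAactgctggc
Cdc20 (chr4:118437344-118437443, minus strand): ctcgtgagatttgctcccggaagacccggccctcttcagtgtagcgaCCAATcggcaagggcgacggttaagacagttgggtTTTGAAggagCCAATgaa
Top2a (chr11:99024190-99024289, minus strand): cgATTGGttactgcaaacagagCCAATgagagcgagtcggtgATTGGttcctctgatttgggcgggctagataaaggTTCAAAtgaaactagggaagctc
Ube2c (chr2:164769829-164769928, plus strand): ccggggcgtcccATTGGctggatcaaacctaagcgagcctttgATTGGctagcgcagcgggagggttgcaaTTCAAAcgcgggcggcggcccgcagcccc
Espl1 (chr15:102296193-102296292, plus strand): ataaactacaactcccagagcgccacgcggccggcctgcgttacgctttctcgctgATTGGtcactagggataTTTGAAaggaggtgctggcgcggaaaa
Bub3 (chr7:131560270-131560369, plus strand): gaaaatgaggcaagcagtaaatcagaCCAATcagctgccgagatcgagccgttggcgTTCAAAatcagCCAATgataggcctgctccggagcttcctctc
Counted from the gene start, the CHR form nearest to it begins at -15 in Cdk1, -18 in Cdc20, -23 in Top2a, -27 in Espl1 and -29 in Ube2c, each with a CCAAT box further upstream. In Bub3 it begins at -43, between CCAAT boxes that begin at -74 and -32. The CHR form of Cdc20 likewise lies between CCAAT boxes, which begin at -53 and -8. The presence of both elements was thus not limited to genes that passed the test.

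**Figure D4:**
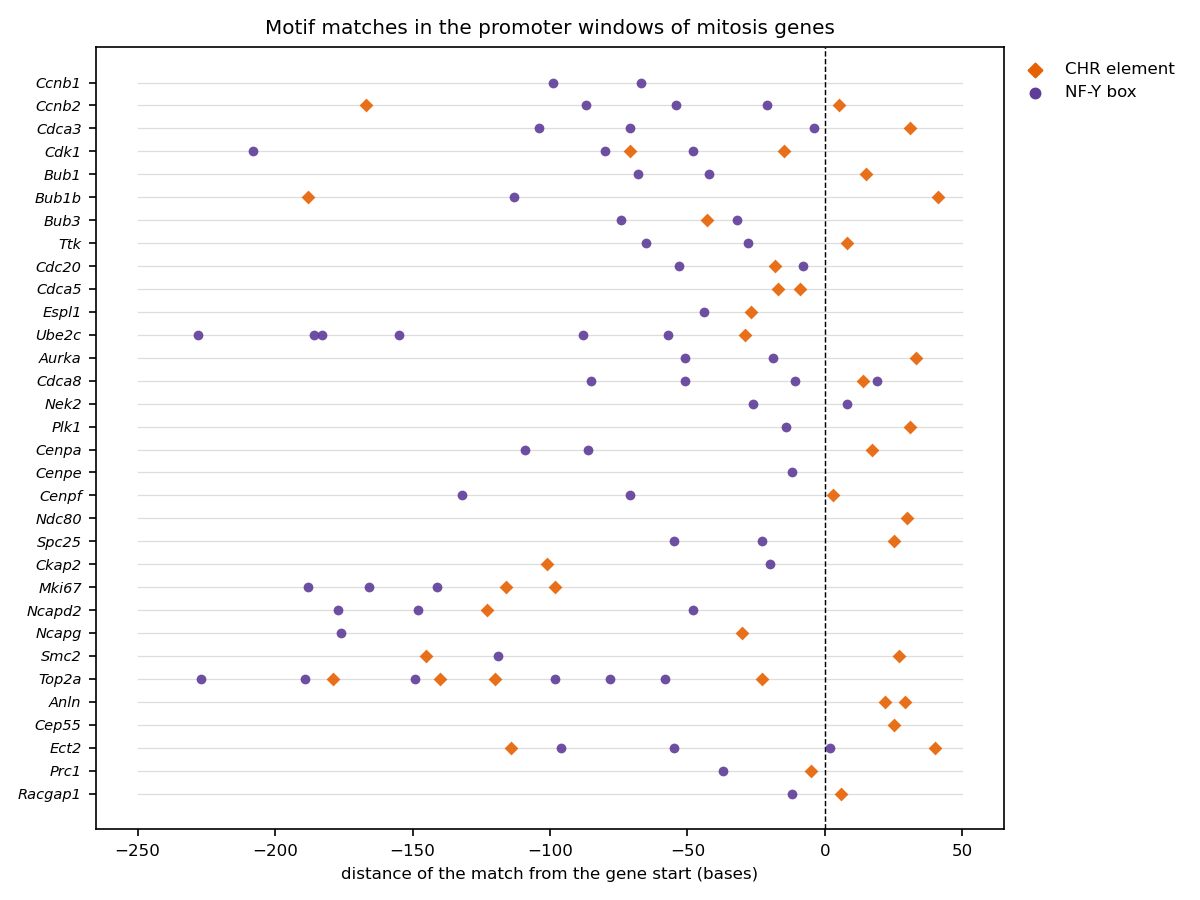
Positions of matches in the first promoter window of the 32 mitosis genes that had any (horizontal axis, bases from the gene start, dashed line at the start). Diamonds are CHR forms and circles are NF-Y boxes, that is CCAAT on either strand. CHR forms cluster near the start, with circles mostly upstream of them.

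Other cell cycle genes of the CGC were read from further lists, and a value given for one of these is that of its highest probe set unless another is named. Of 33 measured kinetochore genes outside the set, 16 rose and 0 fell, with Cenpp (1.57) and Incenp (1.52), the scaffold of the passenger complex, as the highest. Mitotic kinesins rose in 8 of 12 cases, led by Kif20a (1.97), which works at the midzone, and Kif2c (1.89), a microtubule depolymerase. Of 38 DNA replication genes, 22 rose, led by Gmnn (1.61), the inhibitor of re-licensing, and Rfc4 (1.44), a clamp loader subunit. Of 12 cohesin genes, 0 were called, while 15 of their 40 probe sets were higher and 3 lower at an unadjusted p under 0.05 in limma, where 18.3% and 13.3% of all were. Of the 3 remaining condensin genes, Ncapg2 (0.78) rose.

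Of 16 APC/C subunits and regulators, 2 rose, Fbxo5 (0.90), the inhibitor EMI1, and Anapc10 (0.69), beside 3.91% of all genes, and 19 of the list's 43 probe sets were higher and 3 lower at an unadjusted p under 0.05. In the list of 20 MuvB, B-Myb, FoxM1 and E2F genes, E2f7 (1.08), a repressor of the E2F family, Lin54 (0.80), the MuvB subunit that contacts the CHR, and a probe set of Rbbp4 (1.00) rose, while another probe set of Rbbp4 fell by 0.45. At an unadjusted p under 0.05, 22 of the 46 probe sets of this list were higher and 3 lower. Foxm1 and Mybl2, named after their values were seen because they encode the activators of late cell cycle genes, were not called at any probe set (Foxm1 -0.03 to 0.79, Mybl2 0.17 and 0.29). Among 15 genes of G1 control, Cdk4 (1.12), Ccnd2 (0.99), the D-type cyclin of precursors, Ccnd1 (0.64) and the inhibitor Cdkn2c (0.88) rose.

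Markers of some other cell types moved with the mitosis genes in the CGC. Of 18 genes of meningeal fibroblasts, 13 rose, with Col1a1 (3.59) and Col3a1 (3.49), fibrillar collagens, the highest. Their mean value was 1.10 to 1.20 on Cstb-/- arrays and -0.20 to -0.10 on wild type arrays. For the mitosis genes it was 1.04, 1.07 and 1.14 in Cstb-/- CGC and -0.12, -0.32, -0.17 and -0.10 in wild type CGC. All list means given here are over the lowest-numbered probe set of each gene. Smooth muscle and pericyte genes rose in 4 of 12 cases, with Myl9 (2.44) and Tagln (2.39) the highest, astrocyte genes in 3 of 12 (Gja1 1.67, Aldh1l1 0.76 and Aldoc 0.64). Of 11 oligodendrocyte lineage genes, Pdgfra, also on the fibroblast list, and Olig2 rose, but the list as a whole did not lie higher, with a median difference of -0.07, 9 of 29 probe sets above 0 and, at an unadjusted p under 0.05, 5 higher and 9 lower. Its mean was -0.07, 0.37 and -0.05 on Cstb-/- arrays, against -0.07 to 0.10 on wild type arrays. The mean of the smooth muscle list was 0.58 to 0.66 on Cstb-/- arrays and -0.15 to -0.02 on wild type arrays. Over all 24 probe sets of that list, rather than 1 per gene, the median difference was 0.03, with 12 above 0. The mean of the astrocyte list was 0.19 to 0.40 on Cstb-/- arrays and -0.23 to 0.06 on wild type arrays.

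Lists for the granule lineage itself had few called genes. Among 11 granule cell precursor genes only Gli2 (0.67) rose, Atoh1, the defining transcription factor of precursors, gave 0.29 (adjusted p = 0.106), and the list's mean lay between -0.01 and 0.11 on Cstb-/- arrays and -0.03 and 0.03 on wild type arrays. Of 11 mature granule neuron genes, Fat2, a cadherin of granule neurons, fell by 0.62 and 0 rose, with means of -0.25 to 0.02 in Cstb-/- and -0.09 to 0.05 in wild type CGC. Cstb-/- arrays 2 and 3 (-0.19 and -0.25) lay below all wild type arrays and array 1 did not. At an unadjusted p under 0.05 in limma, 5 of 27 precursor probe sets were higher and 2 lower. Of 22 mature neuron probe sets, 1 was higher and 3 lower, where 18.3% and 13.3% of all were. No gene of the endothelial, microglial or choroid plexus lists passed in either direction. At an unadjusted p under 0.05 in limma, 2 endothelial probe sets were higher and 3 lower, 0 microglial ones higher and 3 lower, and 1 of the choroid plexus higher and 2 lower. Defining markers could not be shown to be at 0, since levels were not kept. The part of these cell types in the mitosis result was not tested.

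**Figure D5:**
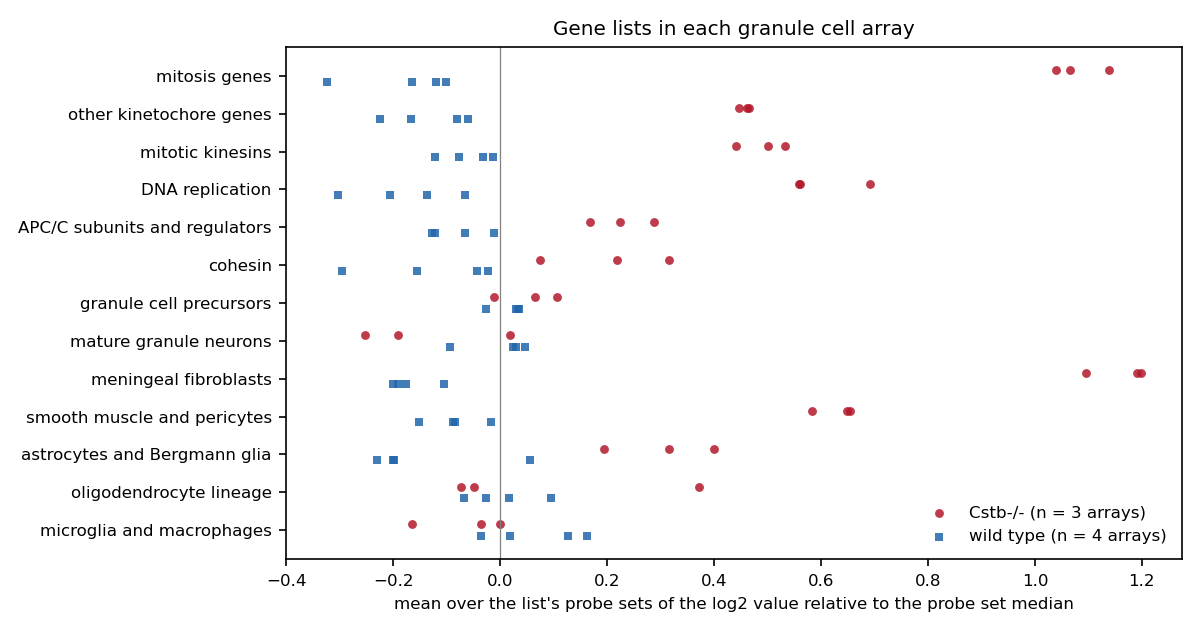
Mean log2 value of each gene list (horizontal axis, relative to the probe set medians) on each granule cell array, over the lowest-numbered probe set of each gene. Red circles are the 3 Cstb-/- arrays, blue squares the 4 wild type arrays. The mitosis genes (1.04 to 1.14 on Cstb-/- arrays) and the meningeal fibroblast genes (1.10 to 1.20) are furthest apart between genotypes, while granule cell precursor genes lie near 0 in both. Mature granule neuron genes lie at -0.25 to 0.02 on Cstb-/- arrays and -0.09 to 0.05 on wild type arrays.

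At P7 no mitosis gene passed the threshold in either direction, where 0% of all probe sets rose and 0.00666% fell (0% and 0.011% of genes). Small differences below 0 were nevertheless common. Of the 105 probe sets, 87 were lower in Cstb-/- cerebella, whereas 53.7% of all probe sets were above 0, and 22 were lower at an unadjusted p under 0.05 in limma, where 4.99% of all were, with 0 higher (4.47%). All 4 Cstb-/- arrays lay below all 4 wild type arrays in 14, where 2.84% of all probe sets showed this, and above them in 0 (2.8% of all). The median difference was -0.12, against 0.01 over all probe sets, and the smallest adjusted p was 0.347. The mean over the lowest-numbered probe sets of the 46 genes was 0.02, -0.07, -0.16 and -0.11 on Cstb-/- arrays 1, 2, 3 and 5. On wild type arrays 1, 2, 3 and 4 it was 0.05, 0.15, 0.03 and 0.04. The array with the highest mean was wild type array 2. Leaving out any array in turn, 81 to 91 probe sets were below 0 and 11 to 29 were lower at an unadjusted p under 0.05, an alternative added after the data had been seen.

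Named genes at P7 overlapped between genotypes or differed by little. Cdk1 had 0.04, -0.15, -0.18 and -0.04 in Cstb-/- cerebella, against 0.05, 0.11, 0.10 and -0.14 in wild type cerebella, a difference of -0.11 (SE 0.08, adjusted p = 0.674). Bub1 had 0.03, -0.06, -0.18 and -0.30 in Cstb-/- and 0.03, 0.26, -0.03 and 0.32 in wild type cerebella (-0.27, SE 0.10, adjusted p = 0.472). For Mki67 the groups were apart, at -0.03, -0.03, -0.17 and -0.12 in Cstb-/- and 0.03, 0.13, 0.15 and 0.09 in wild type cerebella, yet the difference of -0.19 (SE 0.07, adjusted p = 0.445) did not pass. The proliferation marker was thus lower on all 4 Cstb-/- arrays by less than the fold used. Top2a had -0.36, 0.07, -0.06 and 0.16 in Cstb-/- and -0.02, -0.45, 0.02 and 0.11 in wild type cerebella at its lowest-numbered probe set (0.04, SE 0.14), and another of its probe sets gave -0.23 (adjusted p = 0.393). Among the lowest-numbered probe sets the highest difference was that of Cdc25c (0.08, SE 0.08, adjusted p = 0.756), with 0.01, 0.11, -0.15 and 0.13 in Cstb-/- and -0.09, 0.01, -0.14 and -0.01 in wild type cerebella. Over all 105 probe sets the highest was 0.15, at a spindle checkpoint gene. Ect2 had the lowest. It stood at -0.09, 0.08, -0.32 and -0.54 in Cstb-/- cerebella, against -0.08, 0.57, 0.25 and 0.37 in wild type cerebella, which gave -0.49 (SE 0.15, adjusted p = 0.414), with wild type array 1 inside the range of the Cstb-/- arrays.

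Sex was unevenly spread at P7, with 3 labelled males of 4 Cstb-/- and 1 of 4 wild type cerebella. With labelled sex as a covariate 4 probe sets of 3 genes fell, Plk4 by 0.39 and 0.58, Smc4 by 0.57 and Cep55 by 0.51 (adjusted p 0.0236 to 0.0471, limma), while the same fit called 212 probe sets higher and 896 lower on the whole array. Other lists at P7 were at a median of -0.13 for DNA replication, -0.10 for mitotic kinesins and -0.11 for the other kinetochore genes. Precursor markers were at -0.0047, mature granule neuron markers at 0.21 and choroid plexus markers at -1.70. Oligodendrocyte lineage markers had a median of 0.32, with 19 of 29 probe sets higher and 2 lower at an unadjusted p under 0.05, and list means of 0.10 to 0.50 on Cstb-/- arrays and -0.34 to -0.06 on wild type arrays. Meningeal fibroblast markers had a median of -0.10, with 1 of 32 probe sets higher and 12 lower, and list means of -0.14 to -0.04 on Cstb-/- arrays and 0.05 to 0.12 on wild type arrays. The groups did not overlap for either list, nor for the means of some others. Mature granule neuron markers had 0.03 to 0.23 on Cstb-/- and -0.25 to -0.08 on wild type arrays. Choroid plexus markers had -2.03 to -0.10 on Cstb-/- and 0.03 to 0.44 on wild type arrays. The other kinetochore genes had -0.131 to 0.006 on Cstb-/- and 0.018 to 0.094 on wild type arrays. No gene of the 17 lists was called at P7, and 20 DNA replication probe sets were lower and 1 higher at an unadjusted p under 0.05 in limma. The part of these cell types in the P7 values was not tested.

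At P30 again no mitosis gene changed, where 0.138% of all probe sets rose and 0.00666% fell (0.242% and 0.011% of genes). Cstb-/- arrays lay above all wild type arrays in 7 of the 105, where 6.24% of all did, and below them in 5, where 6.25% did. The differences were divided between 60 above and 45 below 0, with a median of 0.01, and 8 were higher and 2 lower at an unadjusted p under 0.05 in limma, where 4.16% and 3.55% of all were. Mean values over the lowest-numbered probe set of each gene were 0.04, -0.02 and 0.09 on Cstb-/- arrays 1, 2 and 3. On wild type arrays 1, 2 and 3 they were -0.03, 0.01 and -0.05, so the groups overlapped. Mki67 was the highest member, with 0.41, -0.03 and 0.48 in Cstb-/- cerebella, against -0.21, 0.03 and -0.35 in wild type cerebella. Cstb-/- array 2 lay within the wild type range, and the difference of 0.46 (SE 0.14, adjusted p = 0.500) did not pass. Among the lowest-numbered probe sets Anln was the lowest, at -0.09, -0.44 and 0.20 in Cstb-/- and 0.01, -0.01 and 0.14 in wild type cerebella (-0.16, SE 0.14, adjusted p = 0.830). Over all 105 the lowest was a probe set of Knstrn (-0.24, adjusted p = 0.499, limma). That probe set and one of Bub3 (-0.21) were the 2 lower at an unadjusted p under 0.05. Cdk1 had 0.18, -0.10 and 0.21 in Cstb-/- and -0.14, -0.05 and 0.05 in wild type cerebella (0.15, SE 0.10, adjusted p = 0.772). The kinase thus overlapped between genotypes. Bub1 had 0.00, 0.54 and 0.00 in Cstb-/- and -0.10, -0.16 and 0.45 in wild type cerebella (0.11, SE 0.19), and Top2a 0.02, -0.37 and 0.04 in Cstb-/- and 0.00, 0.00 and -0.22 in wild type cerebella (-0.03, SE 0.12). Cstb-/- array 2 and wild type array 3 stood away from the other arrays for both genes. In the same comparison 7 of 12 microglial genes and Gfap, the astrocyte filament, were called higher, and no gene of the pathway lists was.

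The size of the genotype effect differed between the cultures and the cerebella when this was tested directly. In 1 fit over the 6 groups, 73 of the 105 probe sets, covering all 46 genes, had a higher difference in the CGC than at P7 (adjusted p under 0.05 and 1.3-fold), where 12.1% of all probe sets did, and 0 a lower one, where 6.57% did. Against P30, 65 were higher in the CGC, where 3.86% of all were, and 0 lower (1.18%). The difference for Cdk1 was 1.97 larger in the CGC than at P7 (SE 0.12, adjusted p = 8.51e-10) and 1.71 larger than at P30 (SE 0.13, adjusted p = 2.84e-08). For Bub1 these values were 2.34 (adjusted p = 2.69e-07) and 1.96 (adjusted p = 1.65e-05). Mki67 gave 1.64 (adjusted p = 5.36e-07) and 0.98 (adjusted p = 0.00131), its effect at P30 being nearer to that of the cultures. Top2a at its lowest-numbered probe set did not pass (-0.36 and -0.30), while both other probe sets did, with 2.14 and 1.33 against P7 and 1.74 and 1.20 against P30. Between the cerebella, P30 minus P7, 0 of the 105 passed in either direction, where 0.115% of all were higher and 0.00888% lower, and 12 were higher and 0 lower at an unadjusted p under 0.05, where 4.13% and 3.65% of all were. The values for this pair were 0.65 for Mki67 (adjusted p = 0.217), 0.38 for Bub1, 0.26 for Cdk1 and -0.07 for Top2a. Age, tissue and culture differ together between these experiments and cannot be told apart.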

How the data were processed

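Per the labels and the methods, the authors hybridized RNA to Affymetrix mouse arrays, ran RMA (background adjustment, quantile normalization and summarization) and subtracted each probe set's median. The deposited values are these log2 signals, centred separately within P7, P30 and CGC, so their differences hold but levels do not. Per the methods, the authors left out a P7 array of each genotype and a Cstb-/- CGC array. Their quality control included a principal component analysis of whether samples of a genotype grouped together. Fewer CGC arrays were available here than the methods kept. What these choices did to the spread within groups was not tested. From 45101 probe sets, 64 controls were left out. Probe sets were named from the platform annotation (34945 with 1 symbol, 932 with several, 9160 with none). Cstb-/- was compared with wild type within each experiment in limma 3.58.1 (R 4.3.3, lmFit and eBayes, Benjamini-Hochberg over 45037 probe sets, 2-sided), with the fold and p thresholds of the methods. Genotype effects were compared between experiments by contrasts in 1 fit over 6 groups. Scripts were tested on simulated data. The members and lists were chosen with earlier results of these data known. Genes with values per array were a fixed selection from each role, the highest and lowest member of each comparison and, from other lists, the 2 highest and 2 lowest called genes. Values per array, and list means, are those of the lowest-numbered probe set of a gene. A difference given for a gene without array values can be that of another probe set. For genes of the other lists it is that of the highest probe set unless another is named. The number of arrays limits the precision. Alternatives were other variance estimates, the methods' t-test, other thresholds, sex as a covariate, other probe set choices and leaving out arrays.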

Additional observations from a re-analysis of the deposited data

Results flagged for a closer look

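The genotype effect on the mitosis genes differed between experiments in the direct test of limma. It was higher in the CGC than at P7 for 73 of 105 probe sets and higher in the CGC than at P30 for 65. Among the named genes this held for Bub1 (2.34 larger than at P7 and 1.96 larger than at P30), Cdk1 (1.97 and 1.71) and Mki67 (1.64 and 0.98).

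In 30 groups of 4 arrays tested, 2 had a single array far from the other three, and chance gives about 1 in 20. Wild type CGC array 5 stood at -0.17 for Cdk1, and wild type CGC array 7 at -0.21 for the lowest-numbered probe set of Cenpa. Both groups held tied values, on wild type arrays 4 and 7 for Cdk1 and 5 and 8 for Cenpa. The 1 in 20 assumes no ties.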

How the results depend on the processing

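Of 338 repeated counts of changed members, 319 stayed within 1.5 times the reported count. Many of these were counts of 0 that stayed 0, among them all P30 counts, so this share says little about the CGC counts. In the CGC the methods' t-test with correction over all probe sets called 4 probe sets of 4 genes (Tpx2, Bub1b, Plk1 and Cdk1) among 32 on the whole array, and 49 of 40 genes, among 527 higher and 101 lower on the whole array, when only probe sets beyond the fold were corrected for. Leaving out 1 array in turn gave 32 to 44 genes and 38 to 60 probe sets higher and 0 to 1 lower. Leaving out Cstb-/- arrays 1 and 2 together, or wild type arrays 7 and 8 together, both chosen after seeing the data, gave 0, and 6 probe sets of 5 genes. At P7 sex as a covariate gave 4 probe sets of 3 genes lower. For the contrasts, CGC against P7 had 3 lower with array weights and 3 with sex as a covariate, and P30 against P7 had 1 higher with array weights. Without 1 array in turn, CGC against P7 had 70 to 75 higher and 0 to 3 lower, CGC against P30 had 63 to 71 higher and 0 to 2 lower, and P30 against P7 had 0 to 1 higher, the 1 being Mki67 without P30 Cstb-/- array 2 (0.81, adjusted p = 0.0289, limma). The causes were not tested.

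Of 743 repeated values of single members, 15 changed sign, each against a reported value that had not passed the threshold. In a further 58 the sign held but a reported call was lost, all in the CGC, under the methods' t-test or with arrays left out. In 5 the sign held and a call was gained. As the mean of its probe sets, Top2a gave 0.90 in the CGC and was then called (adjusted p = 8.19e-05, limma), -0.14 at P7 and 0.017 at P30, neither called. Without 1 array in turn it ran between -0.083 and 0.14 at P7, -0.10 and 0.11 at P30 and -0.17 and 0.069 for P30 minus P7, while at P30 Bub1 ran between -0.067 and 0.31 and Anln between -0.31 and 0.010. Replicate numbers did not pair the arrays (correlations of deviations 0.006 to 0.17 at P7 and -0.18 to -0.03 at P30), and a fit with the replicate block gave 0 calls among members at both ages. No paired analysis was possible because the CGC groups share no replicate number. A filter on dim probes was not run, since levels were not kept, and what low signal limits could not be read.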
